A study of Homo sapiens with 21 samples.

Results

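The regions described here were stretches of accessible chromatin at the ends of protein-coding genes that were called in every one of 21 ATAC-seq libraries of human microglia-like cells. Peaks of all libraries that shared at least 1 bp were merged into 166893 regions, and a library was taken to call a region when any of its peaks lay in it. On the 22 autosomes 24555 regions were called in 21 of 21 libraries, and 7299 of these lay at most 1 kb from an end of a gene span and form the set. They made up 29.7% of the autosomal regions called in every library and 46.7% of the 15643 autosomal gene-end regions called in any library. The peak calls themselves chose the members, so their recurrence is a description and not a finding.

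ATAC-seq cuts DNA with a transposase where nucleosomes leave it exposed, and peaks mark places where cuts pile up. Promoters of active genes are usually open because transcription factors and RNA polymerase II hold a nucleosome-depleted stretch at the start site, and many genes with CpG-rich promoters are open in nearly every cell type. Genes of the protein, RNA and energy machinery that all cells need are known for such promoters, whereas genes that mark a cell lineage are opened by its own factors, PU.1 (encoded by SPI1) foremost in microglia and macrophages.

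H9 human embryonic stem cells, an established line, were taken through CD43+ haematopoietic progenitors and 28 days of microglial differentiation with IL-34, TGF-beta and M-CSF, with CD200 and CX3CL1 added at the end, and 80000 live cells per line were sorted. The 7 lines were isogenic, with 3 libraries each. WT was the unedited parent. The 6 edited lines carried homozygous CRISPR/Cas9 changes at genes linked to Alzheimer's disease: CD33 SNP, INPP5D SNP (H9 is heterozygous G/A and was converted to A), TREM2-R47H, TREM2-KO, SORL1-A528T and SORL1-KO, the last made as SORL1R744X. The libraries titled SORL1-A528T have TREM2-KO in their genotype field and were grouped here by their titles. The sources used here give neither the number of clones behind a line nor whether its 3 libraries were separate cultures, so p-values measure only a spread among libraries that may be technical.

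Depth followed the replicate number. Replicate 1 libraries had the most tags and replicate 2 libraries the fewest, over a range of 12.8 to 67.4 M tags (M, mega) and 39736 to 102891 peaks per library. The shortest list was SORL1-A528T replicate 2. Without the 7 replicate 2 libraries the same rule gave 10584 members, and without the 3 SORL1-A528T libraries it gave 8046. Of the 1141 autosomal gene-end regions called in 20 of 21 libraries, just outside the rule, 63.8% were missing only from SORL1-A528T replicate 2. Those that stood highest in the lists lay at PPARGC1B, BRI3BP, HHEX, PLCL2 and between ALDH1A3 and LRRK1, each missing from SORL1-A528T replicate 2. The lowest members, just inside it, lay at DEGS2, SERPINB12, CLUL1, MIPOL1 and SCG2, with mean widths of 533 to 609 bp.

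Promoter sequences of 5 genes show what these regions hold. The first 3 are those of called regions, with 1 gene each, whose place in the lists differed between lines (below), ZBTB20 stood highest of all members, and PROS1 is the first microglia marker with 1 gene at its region. Each is the RefSeq GRCh38.p14 window from 250 bases before to 50 bases after the gene start, printed 5′ to 3′ on the gene's strand. Capitals mark matches, on either strand, to the GC box of Sp and KLF factors (GGGCGG), the CCAAT box of NF-Y (CCAAT), the ETS motif (CCGGAAG) or the E-box (CACGTG).
MMADHC, minus strand, chr2:149587726-149588025: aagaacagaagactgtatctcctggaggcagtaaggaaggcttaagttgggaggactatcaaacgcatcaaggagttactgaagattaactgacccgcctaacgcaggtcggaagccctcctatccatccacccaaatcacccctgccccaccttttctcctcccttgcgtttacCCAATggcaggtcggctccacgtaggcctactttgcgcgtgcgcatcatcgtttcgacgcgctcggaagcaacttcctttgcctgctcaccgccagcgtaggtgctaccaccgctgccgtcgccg
MBD3L1, plus strand, chr19:8832127-8832426: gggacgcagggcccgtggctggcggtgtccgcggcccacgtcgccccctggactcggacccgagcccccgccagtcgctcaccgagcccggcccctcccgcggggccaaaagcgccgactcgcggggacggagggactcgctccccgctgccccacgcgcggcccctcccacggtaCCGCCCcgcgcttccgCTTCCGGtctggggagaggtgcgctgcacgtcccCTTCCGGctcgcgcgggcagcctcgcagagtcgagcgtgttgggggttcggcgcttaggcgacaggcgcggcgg
TBC1D15, plus strand, chr12:71839509-71839808: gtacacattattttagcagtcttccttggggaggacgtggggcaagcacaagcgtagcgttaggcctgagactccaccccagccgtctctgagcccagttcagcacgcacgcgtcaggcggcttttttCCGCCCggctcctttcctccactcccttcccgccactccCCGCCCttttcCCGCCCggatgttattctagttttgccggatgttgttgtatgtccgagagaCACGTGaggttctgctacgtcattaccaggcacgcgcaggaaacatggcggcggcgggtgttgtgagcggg
ZBTB20, minus strand, chr3:115147239-115147538: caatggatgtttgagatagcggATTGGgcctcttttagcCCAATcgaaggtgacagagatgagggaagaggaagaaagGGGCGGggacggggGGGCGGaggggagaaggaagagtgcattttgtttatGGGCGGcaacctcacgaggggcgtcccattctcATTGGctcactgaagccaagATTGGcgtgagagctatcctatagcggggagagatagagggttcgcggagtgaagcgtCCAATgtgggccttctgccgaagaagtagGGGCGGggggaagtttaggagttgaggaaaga
PROS1, minus strand, chr3:93973847-93974146: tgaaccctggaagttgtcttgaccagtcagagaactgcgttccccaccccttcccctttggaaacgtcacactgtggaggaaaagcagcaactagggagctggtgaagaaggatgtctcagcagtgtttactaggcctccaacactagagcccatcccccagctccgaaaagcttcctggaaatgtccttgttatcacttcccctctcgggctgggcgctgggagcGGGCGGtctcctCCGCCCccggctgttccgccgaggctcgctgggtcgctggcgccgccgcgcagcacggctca
ZBTB20 held 4 GC boxes and 5 CCAAT boxes, TBC1D15 held 3 GC boxes and an E-box, MBD3L1 held 2 ETS matches and a GC box, PROS1 held 2 GC boxes, and MMADHC held 1 CCAAT box.

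The same window was read for every autosomal gene with a RefSeq promoter. Of 13150 promoters, 6032 belonged to a gene with a member at its start, and 2763 to a gene with no region at either end in any library. The members' promoters had a median GC content of 64.7% and a median of 26 CpG pairs, against 51.7% and 5 for genes with no region. The 4050 promoters of genes with an end region in 1 to 20 libraries were close to the members, with 65.0% and 24, so a high GC content was shared by both. Of these, 62.7% held the GC box, 12.4% the ETS motif, 29.9% the CCAAT box and 2.49% the PU.1 match described next. Their CCAAT share lay below that of the genes with no region. The GC box was in 71.2% of the members' promoters, 58.9% of all promoters and 26.5% of those with no region. The ETS motif stood at 22.1%, 14.8% and 2.75%, the CCAAT box at 41.9%, 36.8% and 36.1%, the NRF1 motif (GCGCATGC) at 6.25%, 4.36% and 0.760%, and the YY1 motif (AAGATGGCG) at 4.39%, 2.92% and 0.326%. The TATA box (TATAAA) ran the other way, at 5.57%, 10.1% and 21.9%, as did the AP-1 motif (TGANTCA) at 3.81%, 5.73% and 9.55%. A strict PU.1 match (GAGGAAGT) was in 2.60% of the members' promoters, 2.37% of all and 1.88% of those with no region. These are shares of letters in fixed windows, all motifs were searched on both strands, an ETS and a PU.1 match may overlap, and the windows' GC content moves with the share of GC-rich motifs.

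Most members lay within 1 kb of a gene start. RefSeq strands placed 6158 members, and 94.5% of those (5819) lay at most 1 kb from the start of a gene. The other 339 lay only at a far end. Members with a gene of unknown strand were kept where another gene's start was near and left out otherwise, which raises that share. Regions at starts were wider and stood earlier in the lists: their median width was 1567 bp and their median percentile 73.4, against 1009 bp and 41.1 for far ends. Width is the number of bp of a region covered by the peaks of 1 library, and percentile is the place of its first peak in that library's list, ranked among the 24555 autosomal regions called everywhere, with 100 the first. The headers do not state what the list order means. Across members the mean percentile rose with mean width (Spearman's rho 0.665 over 7299 regions, which share libraries and depth). A gene end lay within the region itself for 94.8% of members, and 1384 members touched 2 genes and 98 touched 3 or more.

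Around 4489 starts where the member had 1 gene, peaks reached farther into the gene than ahead of it. Library medians ran from 509 to 746 bp before the start (median 651) and from 623 to 1053 bp after it (median 926). The start itself was covered in 88.0% to 96.6% of these regions, and the peak was longer on the gene side in 55.2% to 69.7%. Replicate 2 libraries, the shallowest, had the shortest reach: 712 ± 63.7 bp after the start (SD, n = 7) against 978 ± 61.5 in replicate 1 and 946 ± 27.5 in replicate 3.

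**Figure D1:**
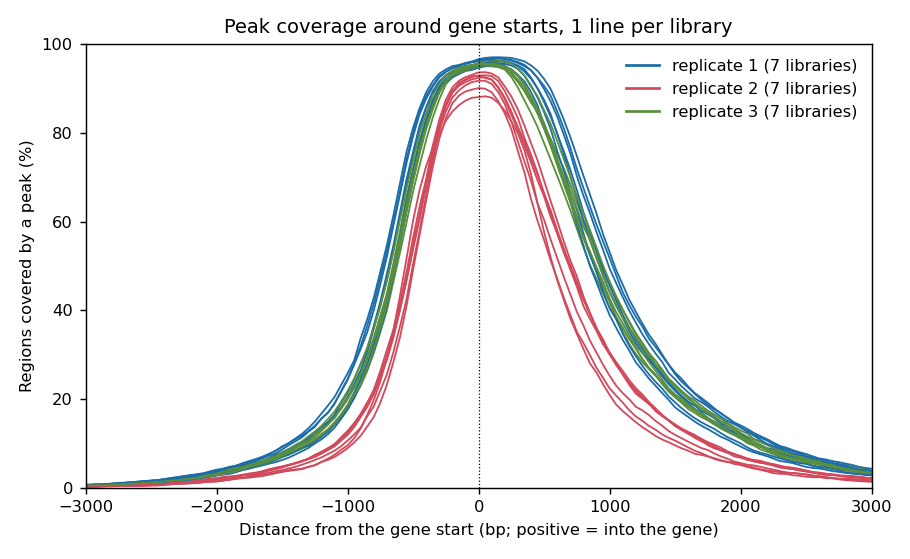
Percent of 4489 gene-start regions covered by a peak (vertical axis) against distance from the gene start in bp (horizontal axis, positive into the gene), with 1 curve per library coloured by replicate number. At 500 bp the curves are higher on the gene side in every library except SORL1-A528T replicate 2 (57.7% after and 60.2% before the start), and the 7 replicate 2 curves lie inside the others.

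In every library the gene-end regions were the wider and the earlier-listed part of the regions called everywhere. Their median width ran from 1103 to 1874 bp over the 21 libraries, against 754 to 1059 bp for the 8563 regions inside gene spans and 752 to 1028 bp for the 8693 regions outside them. Their median percentile ran from 68.0 to 78.6, against 38.1 to 43.7 inside and 35.8 to 44.6 outside. The order of the 3 kinds was the same in 21 of 21 libraries for gene ends against each of the others, while inside and outside regions overlapped each other. The least separate library was SORL1-A528T replicate 2, where gene-end regions were 1.33 times as wide as inside regions, against 1.46 to 1.81 in the others. The rule counts distance from a region's edge, so a wider region meets it more easily. Percentile takes the first peak of a region, so neither measure is independent of a region's extent.

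**Figure D2:**
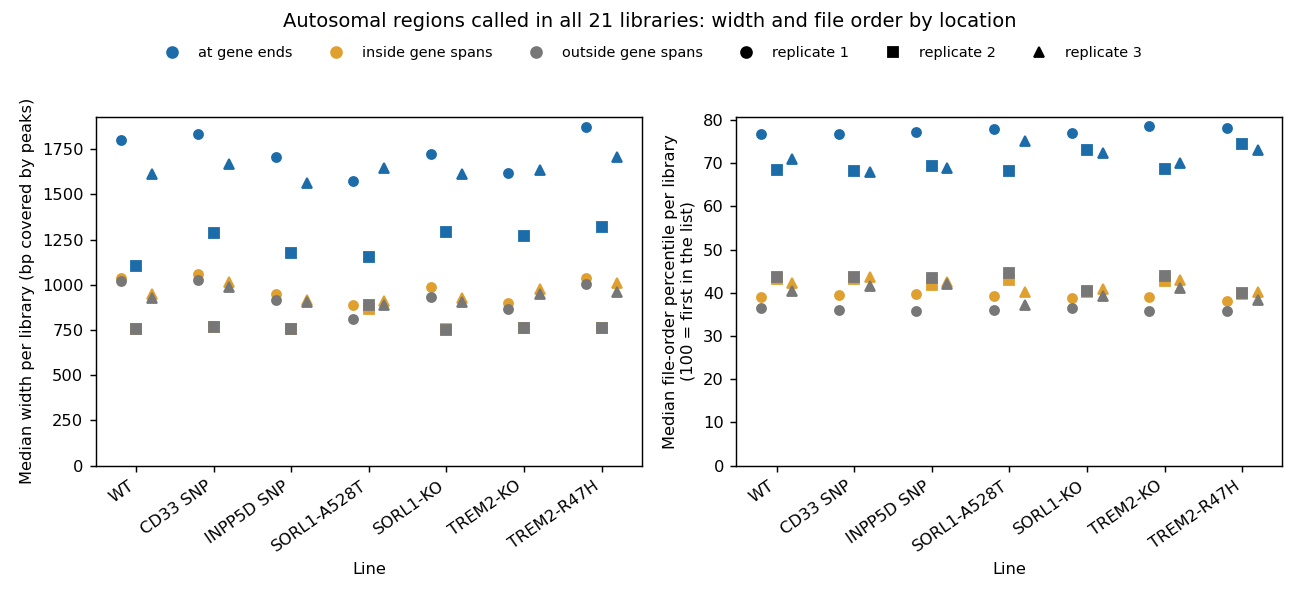
Median width in bp (left) and median file-order percentile (right, 100 being first) of the regions called in all 21 libraries, for each library by line (horizontal axis). Colours give the location and symbols the replicate number. Gene-end regions lie above both other kinds in all 21 libraries, and replicate 2 symbols are the lowest in width among them.

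The share of gene-end regions climbed along the whole order. Of the 1178 regions with a mean percentile under 10, 2.80% were members, and of the 2112 regions above 90, 70.4% were. Between 40 and 50 the share was 25.6%, and between 50 and 60 it was 31.1%.

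**Figure D3:**
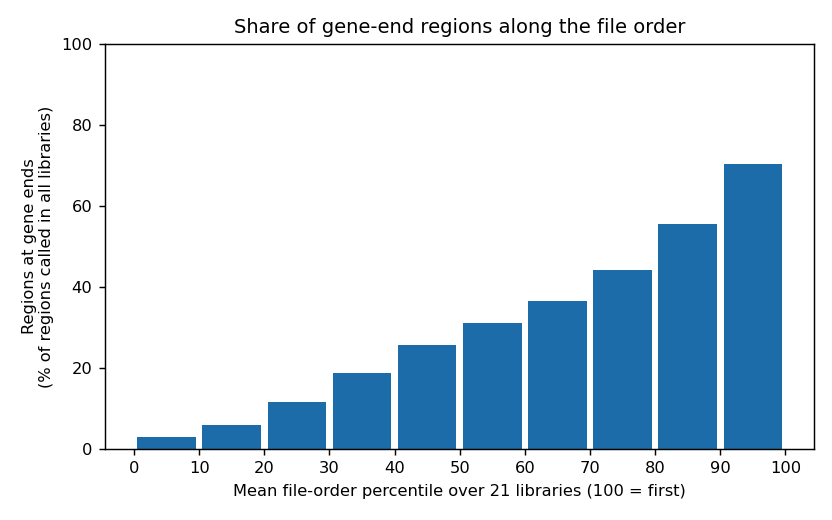
Percent of autosomal regions called in all libraries that lie at gene ends (bars, from 0) in each step of 10 in the mean file-order percentile over 21 libraries. The bars rise at every step, from 2.80% to 70.4%.

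Between lines these medians lay close together. The mean of the 3 library medians of width was 1507 ± 362 bp in WT (SD, n = 3), and it ran from 1456 ± 267 in SORL1-A528T to 1632 ± 285 in TREM2-R47H. The median percentile was 72.0 ± 4.29 in WT and ran from 70.9 ± 4.96 in CD33 SNP to 75.2 ± 2.62 in TREM2-R47H. In both measures each edited line differed from WT by less than the SD of the 3 WT libraries, an SD that holds the gap between replicate numbers. Number by number, TREM2-R47H had median widths of 1874, 1318 and 1705 bp against 1802, 1103 and 1615 in WT, higher in 3 of 3, and percentiles of 78.2, 74.4 and 73.1 against 76.7, 68.4 and 70.9, also higher in 3 of 3. No test was made of these medians. By replicate number the widths were 1733 ± 111, 1228 ± 83.2 and 1634 ± 44.8 bp (SD, n = 7 each) for replicates 1, 2 and 3, and replicate 2 lay below the others without overlap.

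The 10 members with the highest mean percentile were chosen for it, and values so near 100 leave little room to vary. ZBTB20, a zinc finger repressor (3:115145565-115148975), had a percentile of 99.9 to 100.0 in all 21 libraries and a mean width of 2930.1 bp. G3BP1, which builds stress granules, stood at 99.8 to 100.0. Next came the shared region of PDCD10 and SERPINI1 (99.8 to 99.9), ZNF672, the region between ENY2, a SAGA subunit, and NUDCD1, then RAP2B, a small GTPase, NR4A2, an orphan nuclear receptor, SP4, an Sp factor that binds GC boxes, GSK3B, the glycogen synthase kinase, and TLE4, a Groucho corepressor. None of the 10 fell below 99.6 in any library. At the bottom, DEGS2 had a mean percentile of 3.43 and SERPINB12 of 4.2, and at both the narrowest width over the libraries was 501 bp. Counted in the whole lists, DEGS2 and SERPINB12 had mean percentiles of 38.1 and 41.3.

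The widest regions varied in width between libraries. NR4A2 covered 4581 to 14721 bp at percentiles of 99.7 to 99.9. In the widest 10, CD74, the invariant chain of MHC class II, shared with TCOF1 a region covered over 5408 to 18090 bp. BHLHE40, a basic helix-loop-helix transcription factor, covered 6178 to 11610 bp, and RGS1, a G-protein signalling regulator, 5309 to 8289 bp. TSPOAP1, DUSP6, a MAP kinase phosphatase, ID2 and BCL6, both transcriptional repressors, were also among them. The top of that list was LOC101927345 on chromosome 21, covered over 31756 to 36752 bp in replicate 1 libraries and 2835 to 12928 bp in replicate 2. ZNF595 on chromosome 4 covered 31800 to 33424 bp in replicate 1 and 3372 to 8789 bp in replicate 2. In both regions replicate 1 was wider than replicate 2 in all 7 lines.

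By function, members lay at 57.1% to 85.0% of the genes of core machinery lists, beside 44.3% of all 19126 autosomal protein-coding genes. The share of RNA polymerase II and Mediator, the lowest, has a 95% Wilson interval of 42.2% to 70.9%, which holds the share of all genes. The counts were 17 of 20 aminoacyl-tRNA synthetase genes, which charge tRNAs, 37 of 45 genes of DNA replication and the cell cycle, 55 of 74 cytosolic ribosomal protein genes, 52 of 72 subunits of oxidative phosphorylation, 29 of 42 spliceosome genes, 22 of 32 proteasome genes, 51 of 77 mitochondrial ribosomal protein genes, 25 of 39 lysosome and V-ATPase genes, and 24 of 42 genes of RNA polymerase II and Mediator. Median percentiles of the members in these lists ran from 59.4 for oxidative phosphorylation to 80.3 for the synthetases, beside 73.1 over all genes with a member. Examples high in the lists were MRPL50 at a mean percentile of 99.7, MAD2L1, a spindle checkpoint gene, at 99.4, RPL7 at 99.4, CCNH at 98.8, LARS1 at 98.7, ASAH1, acid ceramidase, at 98.1, PSMB1 at 97.9 and ATP5PF at 96.5. PSMB1 and TBP share 1 region and so share its values, and MRPL50, RPL7 and ATP5PF share theirs with ZNF189, RDH10 and GABPA.

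The shares moved with the shallow libraries. Without replicate 2 they were 97.3% for cytosolic ribosomal proteins, 94.4% for oxidative phosphorylation, 93.8% for the proteasome and 95.2% for RNA polymerase II and Mediator, and lists for other cells were higher too, at 18.2% for mesenchymal and endothelial, 38.1% for T and B cell and 7.14% for pluripotency markers. Of the 19 ribosomal protein genes without a member, 18 had an end region in some libraries, such as RPL3, RPL4 and RPL12 in 20 of 21.

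The cells' own lineage genes were well represented by count, but the markers did not stand high as a list. Members lay at 19 of 29 microglia and macrophage markers, 22 of 32 myeloid transcription factor genes, 16 of 26 genes of disease-associated microglia and 21 of 25 NF-kB and AP-1 genes. The markers with a member had a median percentile of 60.7, below the 73.1 over all genes with a member. Medians were 81.2 for the myeloid transcription factors, 73.6 for disease-associated microglia and 70.1 for NF-kB and AP-1. Among the markers CD74 stood at 97.6, PROS1, a bridging ligand of the TAM receptors, at 87.2 and TYROBP, the adaptor of TREM2, at 83.8. P2RY12, CX3CR1 and CSF1R, receptors on the marker list, also had members, at 83.2, 75.3 and 60.7, names added after their values were seen. The gene of PU.1, SPI1, stood only at 41.0. Of the 10 markers without a member, TMEM119, SALL1 and FCGR1A had no end region in any library, and TREM2, C1QC, IRF8 and HLA-DRA were called in 20.

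Myeloid transcription factor regions were wide. Their median width was 2987 bp over 22 genes, beside 1541 bp over all members. BHLHE40 (8329 bp), EGR1 (6580 bp) and CEBPD (4763 bp) stood at percentiles of 97.3 to 99.2, and ELF1 at 95.7. In the NF-kB and AP-1 list JUNB averaged 5987 bp at 94.2, JUN 3433 bp at 92.4, NFKB1 2167 bp at 91.6 and CYLD, a deubiquitinase that restrains NF-kB, 1540 bp at 92.9. CEBPD shares its region with SPIDR, ELF1 with WBP4, and JUNB with HOOK2 and PRDX2. Among genes of disease-associated microglia AXL stood at 91.8, CD63 at 88.7, B2M at 88.5 and FABP5 at 86.5. AXL shares its region with HNRNPUL1 and B2M with PATL2, so these values belong to both genes of a region. Interferon genes had members at 16 of 37, close to all genes, led by IFIH1, an RNA sensor, at 95.7, TRIM22 at 91.0, RSAD2 at 88.7 and STAT2 at 86.9. IFIH1 shares its region with GCA, RSAD2 with CMPK2 and STAT2 with APOF.

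Markers of other cells mostly had no member, that is, no end region called in all 21 libraries. Some missed the rule narrowly: SLC17A7, SLC1A2, CD2 and CD8A had an end region in 20 libraries, and CAMK2A, COL1A2 and ACTA2 in 19. Without an end region in any library were 5 neuron and 5 astrocyte and oligodendrocyte markers. So were 6 T and B cell and 10 mesenchymal and endothelial markers. Members lay at 0 of 14 pluripotency genes, and POU5F1, NANOG, LIN28A and DPPA4 had no end region in any library. Others on that list had one in some libraries, SOX2 in 17, DNMT3B in 15, ZFP42 in 10, and PRDM14 and L1TD1 in 7 each. Of 26 keratin genes 0 had a member. The counts were 1 of 22 for mesenchymal and endothelial markers (PDGFRB, at a percentile of 11.99), 2 of 19 for liver and pancreas (CPS1, in a region shared with LANCL1, at 94.0 and SERPINA1 at 63.2), 3 of 26 for erythroid, megakaryocyte and mast cells (EPOR at 61.7, KIT at 58.2, TFRC at 40.8), 4 of 25 for neurons (MAP2 at 69.1, STMN2, TBR1 and NEUROG2 lower), 3 of 18 for astrocytes and oligodendrocytes (MBP at 90.4, SLC1A3, S100B) and 5 of 21 for T and B cells (IL7R at 67.0, CD3E at 52.5, BLK, CD3D and EBF1 lower). An accessible gene end does not show that the gene is transcribed, and MBP, TFRC and SERPINA1 are also active outside the cells they mark.

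**Figure D4:**
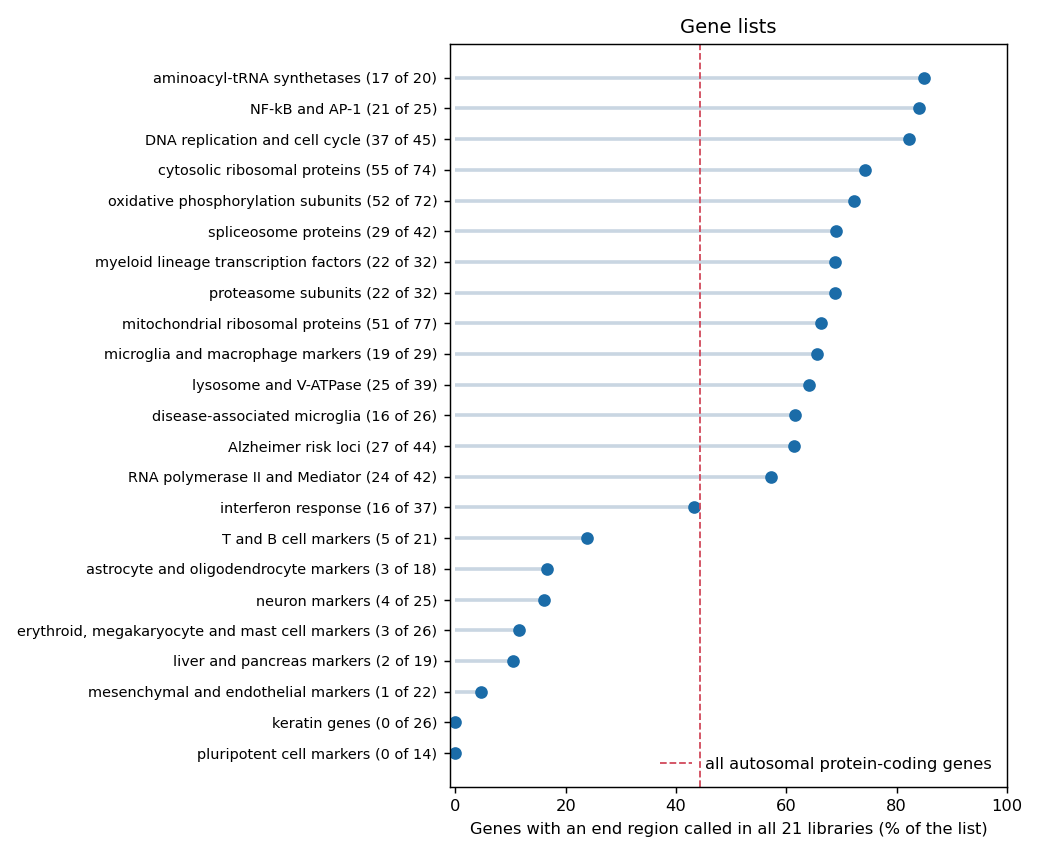
Percent of the autosomal genes of each list that have an end region called in all 21 libraries (points, with counts beside the names) and the 44.3% over all autosomal protein-coding genes (dashed line). The machinery, myeloid and NF-kB lists lie right of the line, interferon genes next to it, and lists for other cell types left of it.

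Genes at Alzheimer's disease risk loci had members at 27 of 44, or 61.4%, beside 44.3% of all autosomal protein-coding genes. WWOX stood at a mean percentile of 97.9, PICALM, an endocytic adaptor, at 97.7, PTK2B, a tyrosine kinase, at 86.4 and APP, the amyloid precursor, at 86.3. PTK2B shares its region with TRIM35. Of the edited genes only INPP5D, the SHIP1 phosphatase, had a member (2:233059496-233062684). Its percentile was 36.9 to 90.1 with a mean of 75.4, and its width 941 to 3139 bp. The 4 lowest widths, 941 to 1395 bp, were all in replicate 2 libraries, of INPP5D SNP, TREM2-R47H, TREM2-KO and SORL1-A528T. The TREM2 end regions were called in 20 and 19 libraries, those of SORL1 and CD33 in 19, and that of APOE, the lipid carrier named in the study's title, in 10, so none of these 4 genes entered the set.

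Chromosomes differed in the share of their genes with a member. Chromosome 5 had the highest share at 58.2% and chromosome 22 the lowest at 24.4%, with chromosome 17 at 25.6% and chromosome 19 at 39.0%.

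The question for the edited lines was whether any gene-end region differed from WT in width or in place. Without the replicate block, width passed the threshold for no member by limma over all 24555 regions with Benjamini-Hochberg adjustment. At an unadjusted p under 0.05 limma had 102 members in CD33 SNP, 127 in INPP5D SNP, 285 in SORL1-A528T, 162 in SORL1-KO, 125 in TREM2-KO and 152 in TREM2-R47H, or 1.40% to 3.90% of members, beside 2.22% to 5.01% of all regions at the same unadjusted threshold, which was the higher share in each of the 6 lines. After adjustment, 0 percent of all regions were called in every line but TREM2-R47H, where 0.00814 percent were. The median log2 difference in width over the members ran from -0.02 in SORL1-A528T to 0.04 in SORL1-KO, beside -0.03 to 0.00 over all regions.

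One member came up in width once the replicate number was a block. At RTP4, a chaperone gene induced by interferon, the widths were 802, 501 and 501 bp in SORL1-A528T and 1529, 1389 and 1444 bp in WT. The 3 SORL1-A528T libraries lay below all others, which ran from 1231 to 1644 bp. The widths of 501 bp, in replicates 2 and 3, lay at the peak size of 500 in the file headers. SORL1-A528T replicate 2 also had the shortest list. The log2 difference was -1.30 ± 0.173 (SE, adjusted p = 0.0137 by limma with the block, 0.0934 without it), where 0.00407 percent of all regions were called. It was named after its values were seen.

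Without the replicate block, place in the list differed from WT for 8 members in 4 lines, and 7 of the 8 stood later than in WT. Calls with the block are given below where they differ. Over all regions 0.00814 percent were called in CD33 SNP, 0.0244 percent in SORL1-A528T, 0.0122 percent in SORL1-KO and 0.163 percent in TREM2-R47H, and 0 percent in INPP5D SNP and TREM2-KO. The members called were 2 of 7299 in each of the 4 lines, or 0.0274%. In INPP5D SNP and TREM2-KO limma called 0 members, with 94 and 115 at an unadjusted p under 0.05, or 1.29% and 1.58% of members beside 2.43% and 2.54% of all regions. In none of the 8 did the width pass the test.

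In CD33 SNP the regions were at MBD3L1 and SLC28A2. MBD3L1, a germ-cell relative of the methyl-CpG-binding protein MBD3 (19:8831534-8833518, over the gene start, whose promoter is printed above with its ETS matches), stood at percentiles of 75.2, 77.1 and 71.5 in CD33 SNP and 94.1, 93.8 and 94.3 in WT. All 3 lay below the 18 other libraries, which ran from 87.9 to 96.5. The difference was -19.5 ± 1.69 points (SE, adjusted p = 1.86e-05 by limma). Its mean width was 1574 bp against 1653 in WT.

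SLC28A2 encodes a sodium-dependent nucleoside transporter, and its region (15:45278723-45279912) began 877 bp beyond the higher-coordinate end of the gene. Its percentiles were 6.35, 0.212 and 1.70 in CD33 SNP and 64.4, 77.9 and 72.7 in WT. In the 3 CD33 SNP libraries it was thus nearly last among the regions called everywhere. The 18 other libraries ran from 28.3 to 77.9, with TREM2-R47H lowest at 28.3, 47.04 and 42.9. The differences were -68.9 ± 6.75 points in CD33 SNP (adjusted p = 6.33e-05 by limma) and -32.2 points in TREM2-R47H (adjusted p = 0.0698 by limma, 0.00927 with the replicate block). Both CD33 SNP calls were lost without the 7 replicate 3 libraries (adjusted p = 0.298 and 1.0 by limma) and with the percentile taken in the whole list (adjusted p = 0.0840 and 1.0 by limma).

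In SORL1-A528T the regions were at TBC1D15 and FAM111B. TBC1D15, a GTPase-activating protein for RAB7 (12:71839052-71841106, over the start with 3 GC boxes and an E-box), stood at 37.5, 46.6 and 42.2 against 76.5, 81.1 and 76.6 in WT. All other libraries lay between 69.5 and 87.1. The difference was -35.9 ± 4.54 points (SE, adjusted p = 0.00301 by limma), and the width was 953 bp against 1552. FAM111B, a serine protease gene (11:59106022-59108635), stood at 64.9, 55.0 and 60.6 against 89.6, 87.0 and 84.9, below the 74.0 to 93.1 of the other libraries (-27.0 ± 4.09 points, adjusted p = 0.0183 by limma). It lost its call without any 1 of SORL1-A528T replicate 2 or 3 or WT replicate 1, 2 or 3 (adjusted p = 0.0524 to 0.141 by limma), and 5 members were called without SORL1-A528T replicate 1 and 1 without SORL1-A528T replicate 3 or any 1 WT library. With the replicate block 7 members were called, beside 0.232 percent of all regions. In this comparison same-numbered libraries deviated together for replicates 1 and 2 (correlations 0.517 and 0.476) but hardly for replicate 3 (0.0573). Without the replicate 2 libraries, or without those of replicate 3, TBC1D15 too was not called (adjusted p = 0.195 and 1.0 by limma).

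In SORL1-KO the regions were at MMADHC and POLI. MMADHC directs vitamin B12 to its enzymes in the cytosol and mitochondria (2:149586602-149588469, over the start with its CCAAT box). Its percentiles were 53.6, 63.8 and 58.1 in SORL1-KO and 89.9, 94.5 and 94.6 in WT, and the other libraries ran from 84.7 to 94.8 without overlap. The difference was -34.5 ± 2.72 points (SE, adjusted p = 3.60e-06 by limma), with widths of 1085 bp against 1520. POLI, the translesion polymerase iota (18:54268737-54271023), stood at 79.4, 87.9 and 84.6 against 96.5, 97.4 and 98.2, again below every other library (-13.4 ± 1.45 points, adjusted p = 0.000203 by limma). Both held without any 1 SORL1-KO or WT library, and were lost without the replicate 3 libraries (adjusted p = 0.143 and 0.784 by limma), as was POLI without replicate 2 (adjusted p = 0.0916 by limma).

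With the replicate block 1 more member was called in SORL1-KO, the region shared by CAPS2 and GLIPR1L2 (15.9, 1.71 and 20.8 against 62.5, 69.0 and 64.8 in WT, adjusted p = 0.0237 by limma, 0.0892 without the block, with 0.0244 percent of all regions called). A member at ZNF585B, a zinc finger gene, was called in TREM2-KO (36.8, 48.0 and 34.7 against 67.1, 77.9 and 77.1, adjusted p = 0.0448 by limma, 0.375 without the block, with 0.00814 percent called). Both were named after their values were seen.

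In TREM2-R47H the regions were at LDB2 and at STX18, which shares its region with LOC124900165. LDB2, a cofactor of LIM-domain transcription factors (4:16896718-16899369, at its higher-coordinate end), stood at 38.6, 49.6 and 53.1 in TREM2-R47H and 1.16, 13.6 and 10.0 in WT. It stood low among the regions called everywhere in all other lines, at most 21.9. The difference was +38.8 ± 5.70 points (SE, adjusted p = 0.0144 by limma), and the width was 2146 bp against 904. STX18, a SNARE of the endoplasmic reticulum (4:4539415-4542812), stood at 84.2, 82.3 and 83.4 against 90.1, 97.0 and 95.4 (-10.8 ± 1.83 points, adjusted p = 0.0191 by limma).

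These calls turned on single libraries. Without WT replicate 2 or WT replicate 3, 0 members were called, with LDB2 at an adjusted p of 0.0556 and 0.125 by limma and STX18 at 0.192 and 0.156. Without TREM2-R47H replicate 1 or 3 the count was 1, and without WT replicate 1 it was 20. STX18 alone was lost without TREM2-R47H replicate 2 (adjusted p = 0.0792 by limma).

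**Figure D5:**
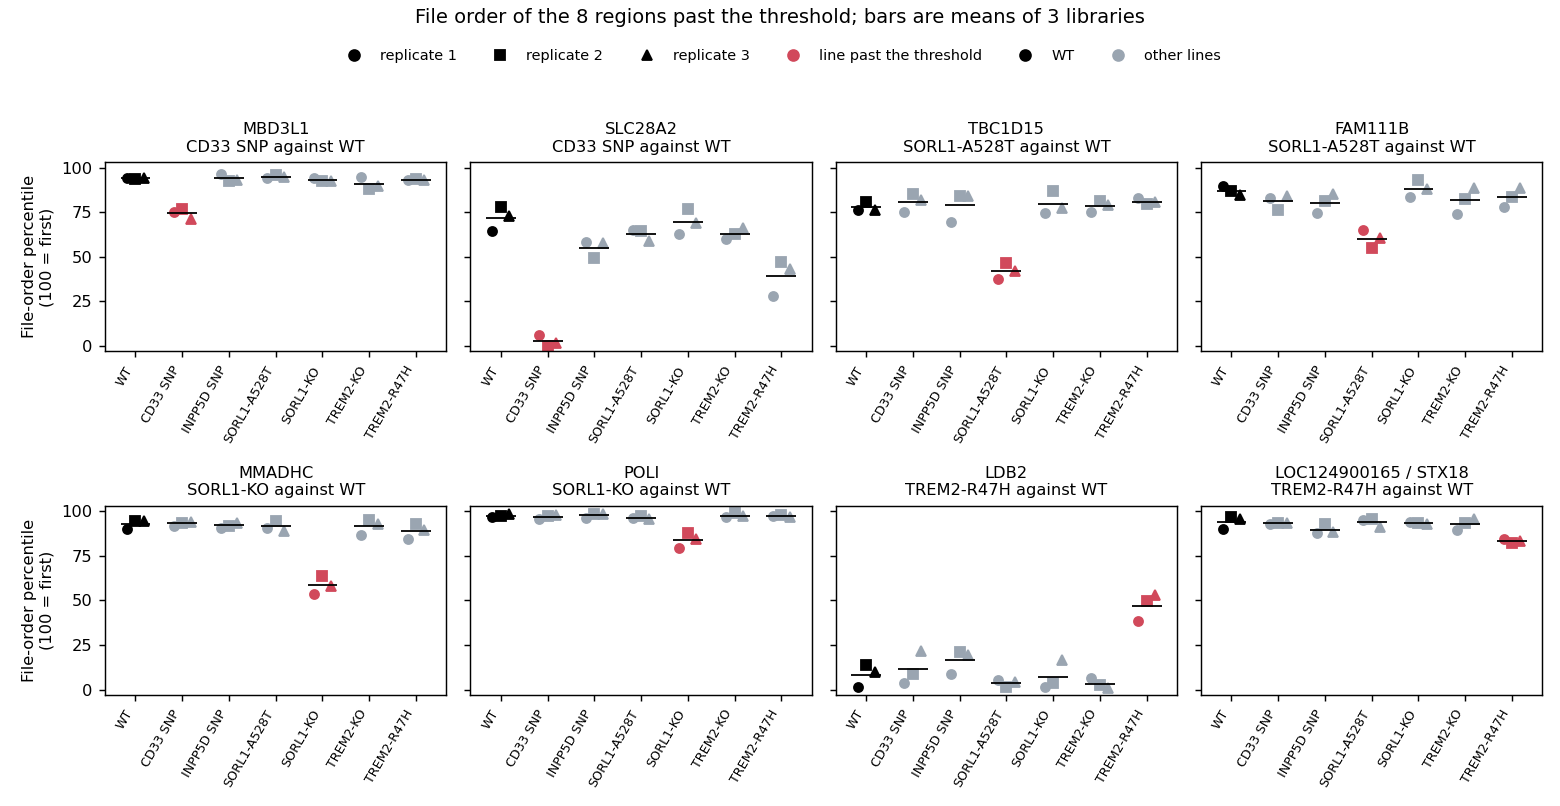
File-order percentile (vertical axis, 100 being first) of the 8 called regions in each library, by line (horizontal axis), with bars at the mean of 3 libraries and the symbol for the replicate number. The line named in each title, in red, lies apart from the WT libraries in all 8 panels, above them only at LDB2.

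With the replicate block TREM2-R47H had 95 members called, 39 earlier and 56 later in the lists than in WT, beside 3.31 percent of all regions. The following were named after their values were seen. Earlier were RILPL1, a gene related to the RAB effector RILP (64.2, 29.1 and 52.8 against 16.4, 8.32 and 12.5 in WT), TFPI, the tissue factor inhibitor (18.01, 29.7 and 19.9 against 0.892, 3.88 and 0.387), and BCL11A, a transcriptional repressor (97.2, 88.3 and 91.8 against 76.6, 71.1 and 78.7). Their adjusted p-values by limma with the block were 0.00474, 0.00878 and 0.00927, and 0.143, 0.0732 and 0.0671 without it. Later were CAVIN2, a caveola coat gene (28.8, 35.6 and 33.5 against 63.2, 88.3 and 80.1, adjusted p = 0.00152 by limma with the block, 0.122 without it), and PTGER2, a prostaglandin E2 receptor gene (68.1, 84.4 and 75.9 against 86.9, 93.6 and 92.1, adjusted p = 0.00315 with the block, 0.0771 without it). In these 5 regions the TREM2-R47H and WT libraries did not overlap. The share of members called, 1.30%, was below the share over all regions.

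Of the regions in the lists 0 were called in any line, in width or place, without the block. In TREM2-R47H the medians of the lists with 15 or more regions ran from 0.51 to 8.10 points. The NF-kB and AP-1 regions had the 8.10, followed by the proteasome at 5.84, oxidative phosphorylation at 5.64, cytosolic ribosomal proteins at 5.42 and myeloid transcription factors at 5.10, beside 1.80 over the members and 0.10 over all regions. The microglia markers had the 0.51. The NF-kB and AP-1 regions also stood at 7.01 in SORL1-KO, which was compared with the same WT libraries.

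Some members swung with the replicate number in every line, and the following 4 were named after their values were seen. The region of KDM6B, a histone H3K27 demethylase, and DNAH2 stood at 69.6 to 83.0 in replicate 1 libraries and 0.6 to 14.1 in replicate 2. CORO1A, an actin regulator of leukocytes, stood at 58.2 to 89.1 and 2.1 to 20.8, and the region of RGS19 and OPRL1 at 85.5 to 93.9 and 5.2 to 48.8. LRRTM3 went the other way, at 40.3 to 48.9 in replicate 1 and 74.4 to 81.8 in replicate 2. Among 135 members with a promoter GC content of at least 80%, the median percentile was 71.5 in replicate 1, 51.3 in replicate 2 and 58.2 in replicate 3, beside 80.5, 71.3 and 73.3 for the 2237 members at 60 to 70%. Over pairs of libraries, the members' order had a median Spearman's rho of 0.938 in 63 pairs with the same number and 0.888 in 21 pairs of the same line. Depth, fragment length and the number of the replicate move together here, and their parts cannot be told apart.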

How the data were processed

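ATAC-seq was measured in 21 libraries of 7 lines. Per the submitters' processing notes, cutadapt 1.18, STAR 2.7, HOMER 4.10 and DESeq2 were used, with no role stated for DESeq2. The deposited lists hold HOMER findPeaks peaks called per library, at settings of 500 for peak size and 1000 for the least distance and with a Poisson p-value of 1.00e-04 over the local region, per the file headers. The deposited score is 1 for every peak, so only position, width and list order were used. The depth of a library was 12.8 to 67.4 M (mega) tags, per the file headers. No source used here names the build of the peaks. Of the gene ends in the RefSeq GRCh38.p14 table, 22.0% lay under a region called everywhere, against 2.77% and 2.87% after a shift of 10 kb either way.

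Peaks sharing 1 bp were merged and coordinates are counted from 1. Log2 width, centred on each library's median, and file-order percentile were fitted with limma 3.58.1 in R 4.3.3 (trend on, all 24555 autosomal regions called in 21 libraries, no block), with each edited line compared with WT and Benjamini-Hochberg adjusted p under 0.05 as the threshold. Those steps were tested on simulated data. The simulated noise was independent between libraries and so did not hold the joint deviation of same-numbered libraries given below. The comparisons share the WT libraries. Replicate numbers come from the titles, which do not say what they stand for. Same-numbered libraries of a line and WT deviated together (correlations 0.113 to 0.725 over regions) in every comparison except place in SORL1-A528T. There replicates 1 and 2 had 0.517 and 0.476, and replicate 3 had 0.0573. Blocked values are therefore given where they change a call.

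Gene lists and motifs were written by hand, and members, lists and rules were chosen with earlier results of these data known. The list genes DDX58, TDGF1 and ESRG were not among the gene table's protein-coding symbols. Named members are, per comparison and measure, up to 10 past the threshold in each direction; the 10 highest and 5 lowest in percentile and the 10 widest; up to 4 genes per list, highest first, of which 1 is not reported here; APOE and the edited genes; and up to 5 on each side of the rule's edge. Alternatives were the distance, the cover that counts as a call, lists of equal length, other limma settings and left-out libraries.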

Additional observations from a re-analysis of the deposited data

How the results depend on the processing

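Member count fell to 2607 when peaks had to cover 50% of a region, and was 7261 to 10584 with a replicate number left out. With that cover the median percentiles were 78.9, 78.5, 78.9, 79.5, 79.3, 79.5 and 79.9 in WT, CD33 SNP, INPP5D SNP, SORL1-A528T, SORL1-KO, TREM2-KO and TREM2-R47H, the width ratios 2.10 to inside and 2.14 to outside regions, and the percentile gaps 41.8 and 42.1. In the whole list the percentiles were 89.4, 90.5, 89.4, 87.5, 90.8, 90.8 and 91.3. With lists of equal length they were 70.04 in SORL1-KO and 71.3 in TREM2-R47H, and the ratio to inside regions 1.58. With a replicate number left out they ran from 72.2 to 78.9 in SORL1-A528T, 73.2 to 76.8 in SORL1-KO and 74.3 to 78.2 in TREM2-R47H, and that ratio from 1.69 to 1.86. Gene starts were 95.8% of members with known strand at 500 bp and 92.5% at 2 kb, and the mesenchymal list had 0 at 500 bp.

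Leaving out a replicate number gave list shares of 74.3 to 97.3% for cytosolic ribosomal proteins, 70.8 to 94.4% for oxidative phosphorylation, 68.8 to 93.8% for the proteasome, 69.0 to 95.2% for the spliceosome, 64.9 to 94.8% for mitochondrial ribosomal proteins, 85.0 to 100.0% for the synthetases, 57.1 to 95.2% for RNA polymerase II and Mediator, 64.1 to 94.9% for the lysosome, 82.2 to 93.3% for DNA replication, 65.5 to 86.2% for microglia markers, 68.8 to 90.6% for myeloid factors, 61.5 to 84.6% for disease-associated microglia, 59.1 to 81.8% for Alzheimer risk loci and 43.2 to 75.7% for interferon genes.

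Calls of members changed as follows. In width, the replicate block gave 1 in SORL1-A528T and left-out libraries 0 to 4, and lists of equal length gave 1 in SORL1-KO. In place, CD33 SNP had 1 with the 50% cover, equal lists, 500 bp or midpoints, 0 in the whole list and 0 to 2 with libraries left out. SORL1-A528T had 0 with the cover, 0 to 5 with libraries left out and 7 with the block, whose pairing did not hold there for replicate 3. SORL1-KO had 1 without the variance trend and 0 to 2 with libraries left out. TREM2-KO had 1 with the block. TREM2-R47H had 4 with the cover, without the trend or at 2 kb, 1 with equal lists, midpoints or no SORL1-A528T libraries, 0 in the whole list, 95 with the block and 0 to 28 with libraries left out. The block changed no call in CD33 SNP and INPP5D SNP. No named member changed direction: over its alternatives the difference kept its sign in all 8, with 78 values past the threshold and 33 not. Sizes did change: in the whole list, a different scale, the differences were -5.84 points at MBD3L1, -12.5 at MMADHC, -4.50 at POLI, -4.01 at STX18, -14.2 at FAM111B and -20.1 at TBC1D15, and without replicate 2 they were -11.5, -21.1, -8.48, -4.99 and -14.3 at the first 5. The cause of these changes was not tested, beyond the fewer libraries and regions each setting keeps. Limits are that the lists carry no height, that depth goes with the replicate number, and that 3 libraries a line give wide intervals, so a difference that was not called may be present.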
